A study of Mus musculus with 23 samples.

Results

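Id1, Id2, Id3 and Id4, the E protein genes Tcf3, Tcf4 and Tcf12, and the related factors Twist1 and Twist2 were followed from mouse embryonic stem cells through cultured muscle cells to adult muscle. The members were all probes of an expression array that carry 1 of these 9 gene names, whatever their signal. This gave 12 probes of the 55681 on the array, and 9 of its 36161 gene names. Tcf3, Tcf4 and Tcf12 had 2 probes each and the other genes 1. Tcf3 and Tcf4 here are E protein genes, and not the Wnt pathway factors that also go by these names, which the array lists separately as Tcf7l1 and Tcf7l2.

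E proteins are basic helix-loop-helix (bHLH) factors made in most tissues. They pair with tissue-restricted partners such as Myod1 and Myog, and the pair binds a short DNA element called the E box and switches on muscle genes. Id proteins have the helix-loop-helix part but lack the basic region that touches DNA, so an E protein held by an Id protein cannot bind. Id1, Id2 and Id3 are well known as genes switched on by bone morphogenetic protein (BMP) signals through the Smad factors, and as genes of dividing precursors. Twist1 and Twist2 are bHLH factors of mesenchymal cells that also pair with E proteins and are known to hold back muscle differentiation.

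Total RNA was labelled in 1 colour and hybridised to 23 Agilent mouse arrays. The 7 groups compared had 3 samples each. Embryonic stem cells were the lines cGR8 (strain 129Sv), RD1 (129X1/SvJ) and E14tg2 (129/Ola), the last on 2 arrays that were averaged. Primary myoblasts, the dividing precursors of muscle fibres, came from male C57BL/6J mice and were taken at passage 0 or while proliferating at passages 8 to 10. They were grown on collagen in a serum-rich medium with the growth factor bFGF. Myotubes, the fused fibres that such cells form in culture, were of the same strain and sex and had spent 1, 2 or 4 days on Matrigel in a medium low in horse serum. Quadriceps muscle came from male mice, 1 of strain C57BL/6J and 2 of a 129Sv/C57BL/6J background. Ages and the number of animals behind each culture are not given in the labels, so the p-values reflect only how far these samples scatter, which may be technical. A further skeletal muscle sample of a NOD/ShiLtj mouse had no replicate. It entered the comparisons only in an alternative setting that added it to the quadriceps.

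The probe of Id3 and 1 of the probes of Tcf3 are shown because the falls of both genes on day 4, below, were called in every alternative setting. Each has 60 bases that can be read in 1 frame without a stop codon. The Id3 probe lies on the plus strand at chr4:135700075-135700249 of build mm9, and its bases span 175 bases of the genome, so it sits across a gap. The Tcf3 probe lies on the minus strand at chr10:79875963-79876022. Whether the positions are exonic or in a UTR was not looked up, since no annotation of that build was used here.
Id3 probe: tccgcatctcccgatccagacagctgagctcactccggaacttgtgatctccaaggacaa
Tcf3 probe A_55_P1975354: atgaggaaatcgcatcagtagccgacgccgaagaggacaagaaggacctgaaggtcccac

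The other probes lie, on mm9, at chr2:152563083-152563142 for Id1, chr12:25778904-25778963 for Id2, chr13:48358668-48358727 for Id4, chr12:34644411-34644470 for Twist1 and chr1:93744519-93744577 for Twist2. The Tcf3 probe A_51_P394471 lies at chr10:79872639-79872698. The Tcf12 probes A_52_P20048 and A_55_P2433438 lie at chr9:71692310-71692369 and chr9:71692059-71692086, of which the second position covers 28 of the probe's bases.

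Id2, Id3 and Tcf3 all fell when myoblasts differentiated, as described below, and the 250 bases before their start sites are shown for that reason, from RefSeq on build GRCm38.p6. Capitals mark the E box CANNTG, which is read the same on both strands, and GGCGCC, a GC-rich element known to bind Smad factors, which is also its own reverse complement.
Id2 promoter, chr12:25096093-25096342, minus strand: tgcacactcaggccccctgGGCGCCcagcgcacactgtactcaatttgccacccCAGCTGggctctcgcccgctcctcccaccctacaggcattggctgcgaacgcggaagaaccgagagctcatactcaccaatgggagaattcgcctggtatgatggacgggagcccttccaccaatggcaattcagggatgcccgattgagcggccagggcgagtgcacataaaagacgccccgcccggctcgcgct
Id3 promoter, chr4:136143572-136143821, plus strand: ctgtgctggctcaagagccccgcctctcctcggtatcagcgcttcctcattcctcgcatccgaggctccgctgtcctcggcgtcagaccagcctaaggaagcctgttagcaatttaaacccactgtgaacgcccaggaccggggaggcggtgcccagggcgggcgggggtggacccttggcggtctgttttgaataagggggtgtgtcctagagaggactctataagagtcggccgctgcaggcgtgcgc
Tcf3 promoter, chr10:80433636-80433885, minus strand: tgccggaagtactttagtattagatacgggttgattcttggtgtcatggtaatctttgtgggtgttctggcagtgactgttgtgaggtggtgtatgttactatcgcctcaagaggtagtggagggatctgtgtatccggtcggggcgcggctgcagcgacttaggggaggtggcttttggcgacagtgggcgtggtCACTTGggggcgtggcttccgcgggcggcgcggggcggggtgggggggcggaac

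The Id2 window holds 1 CAGCTG at position -196 from the start and 1 GGCGCC, and the Tcf3 window 1 CACTTG at position -54. The Id3 window holds neither motif. Among 9 start sites of 7 members in the table, 5 windows had no CANNTG, while 66.2% of 32851 promoters of the same length hold it. GGCGCC was found in the windows of Id2 and Id4 and in 9.6% of all promoters. Each of the 3 promoters shown has 18 CpG pairs, against a median of 6 over all promoters, and a Tcf12 start had the highest number of the members at 39. These are matches of letters and say nothing of binding.

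Levels below are log2 of the processed signal after subtraction of the 75th percentile of each array. A level is comparable between samples for 1 probe and not between probes. That percentile lay at an intensity of 87.7 for replicate 1 of the proliferating myoblasts and at 208 to 765 for all other arrays. This replicate stood apart, correlating across probes at 0.900 and 0.882 with the other samples of its group, which correlated at 0.966 with each other, so results of members and lists that rest on it are given with and without it where a call or a fold moved. Between 39.1% and 60.1% of spots were well above background. The median SD over probes was 0.579 in that group, against 0.239 in passage 0 myoblasts. All 6 stem cell markers were above background in stem cells, all 5 myogenic markers in myoblasts, myotubes and quadriceps, and all 6 fibre markers in quadriceps. Some were also above background elsewhere, with Nanog and Esrrb in every sample, and 2 to 3 myogenic and 3 fibre markers in stem cells. Of the 6 fibre markers, 5 to 6 were above background in each myoblast sample and all 6 in each myotube sample. The number of arrays limits the precision. Probes entered a comparison if all samples of 1 of its groups showed them well above background, and were called where limma's adjusted p was under 0.05 and the fold at least 2.

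All 4 Id genes were higher in passage 0 myoblasts than in stem cells. Id3 had levels of 6.38, 6.39 and 6.31 in passage 0 myoblasts, against 1.06, 2.00 and 2.70 in stem cells. The groups lay far apart, and the fold was 21.7, with a log2 change of 4.44 ± 0.59 (SE, n = 3 each, limma adjusted p = 7.6e-06). Id2, an Id gene of many precursor cells, had levels of 4.48, 4.36 and 3.92 in passage 0 myoblasts and 0.41, 0.93 and 2.05 in stem cells. It rose 8.71-fold (adjusted p = 8.0e-04 in limma), without overlap.

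Id1 had levels of 5.47, 4.26 and 4.82 in passage 0 myoblasts and 0.79, 2.63 and 2.61 in stem cells. The lowest myoblast sample was above the highest stem cell sample, and the rise was 7.16-fold (limma adjusted p = 0.0072). Id4, the Id gene best known from the nervous system, had levels of 0.07, 0.47 and 0.70 in passage 0 myoblasts and -2.63, -2.40 and -2.49 in stem cells. That is a 7.56-fold rise (limma adjusted p = 0.0011), with every sample above background. Over all members 9 of 12 probes tested rose and 0 fell, where 17.8% of the 31284 probes tested on the array rose, 21% fell and 38.9% were called in either direction. Strain and lineage differ together between these groups and cannot be told apart. In bulk samples, fewer cells of a type and less RNA per cell cannot be told apart either.

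Id4 was lower in every proliferating sample than at passage 0, and its call depended on the processing. Id4 had levels of -1.66, -1.85 and -1.81 in proliferating myoblasts, the first of them not above background, and 0.07, 0.47 and 0.70 at passage 0. The groups did not overlap, but the log2 change of -2.18 ± 0.63 (SE) was not called (limma adjusted p = 0.093). Id4 was called lower with normexp correction (-1.57, limma adjusted p = 0.011) and with the authors' values (-1.84, limma adjusted p = 0.0011). Its differences within the 3 slides ran from -2.36 to -1.88, and must be negative where groups do not overlap. Id1, Id2 and Id3 were not called, with log2 changes of 0.33, -0.70 and 0.60 and 95% intervals from -1.33 to 1.98, from -2.07 to 0.67 and from -0.64 to 1.83. All 3 Id3 samples of the proliferating myoblasts were above those of passage 0. In this comparison 1.51% of 27861 probes were called, a count of 422 that ran from 94 without passage 0 replicate 2 to 3041 without proliferating replicate 3.

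**Figure D1:**
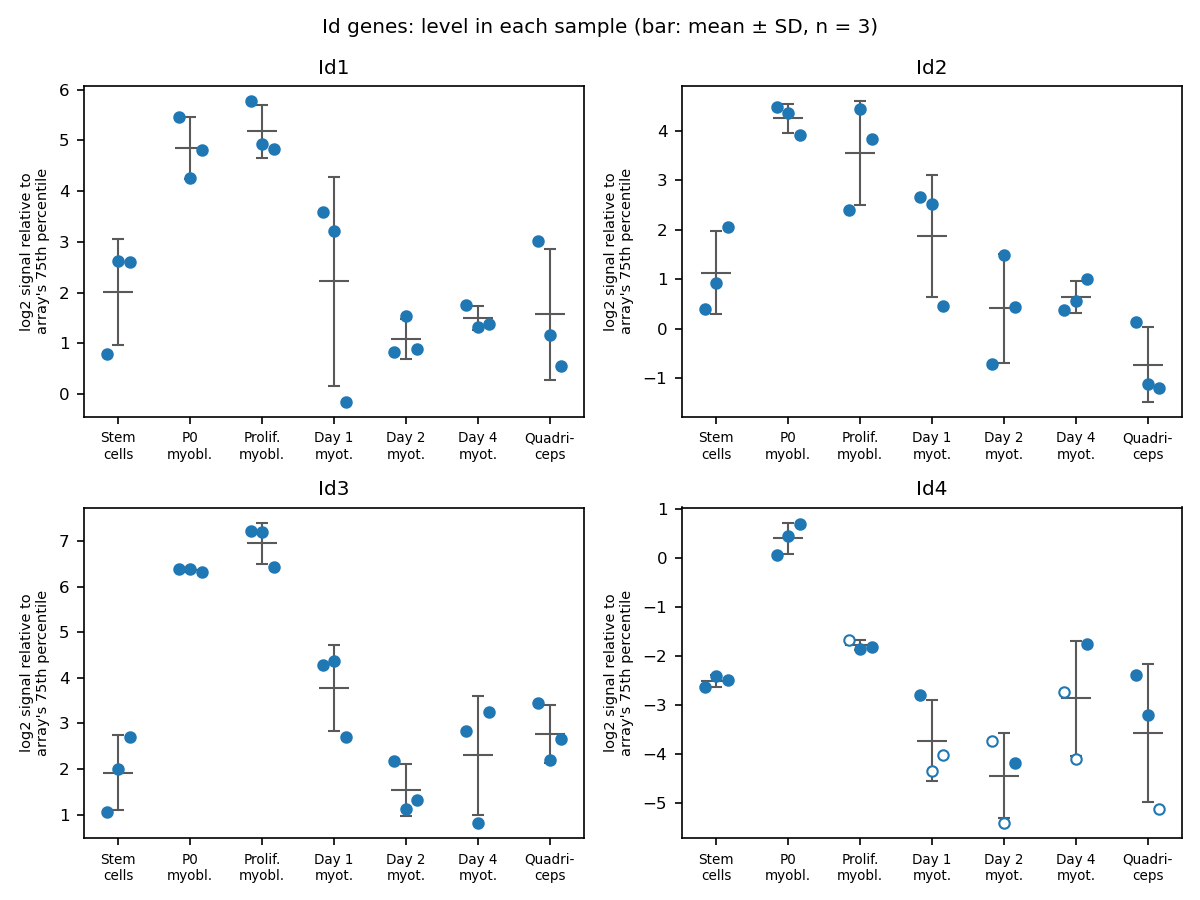
Levels of the 4 Id genes (vertical axis, log2 signal minus the 75th percentile of the array) in each sample of the 7 groups, in order of stage (horizontal axis). Points are samples, open where the probe was not well above background, and bars are mean ± SD (n = 3). Id1, Id2 and Id3 are high in both myoblast groups and low in day 2 and day 4 myotubes.

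Id1, Id2 and Id3 fell in differentiating cultures, and by day 4 their levels overlapped those of stem cells. Medium, substrate and differentiation change together between proliferating myoblasts and myotubes and cannot be told apart, here and for all members below. Id3 had levels of 7.23, 7.20 and 6.43 in proliferating myoblasts, 4.27, 4.38 and 2.70 on day 1, 2.18, 1.12 and 1.32 on day 2, and 2.83, 0.81 and 3.26 on day 4. No day 1 sample reached a proliferating sample, and no day 2 sample reached a day 1 sample. The fall was 9.01-fold on day 1 against proliferating myoblasts (log2 change -3.17 ± 0.58, limma adjusted p = 0.0016) and 4.73-fold on day 2 against day 1 (log2 change -2.24 ± 0.58, limma adjusted p = 0.038). The call on day 2 was made in only 7 of 15 alternative settings, while that on day 1 was made in 15 of 15, with a log2 change of -3.03 without proliferating replicate 1.

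Day 4 against proliferating myoblasts sums the course. Id3 fell 25.2-fold there (log2 change -4.66 ± 0.59, SE, limma adjusted p = 1.4e-05), and its differences within the 3 slides ran from -6.42 to -3.60. Id1 fell 12.9-fold (log2 change -3.69 ± 0.79, limma adjusted p = 0.0016), with levels of 1.76, 1.32 and 1.39 on day 4 and 5.78, 4.92 and 4.83 in proliferating myoblasts. Id2 fell 7.50-fold (log2 change -2.91 ± 0.65, limma adjusted p = 0.0023), with levels of 0.38, 0.56 and 1.00 on day 4 and 2.40, 4.43 and 3.83 in proliferating myoblasts. For all 3 genes the groups were apart, and the call was made in 15 of 15 alternative settings. Without proliferating replicate 1 the log2 changes were -4.52 for Id3, -3.39 for Id1 and -3.49 for Id2, all called.

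The first day is less settled for Id1 and Id2. Id1 had levels of 3.59, 3.22 and -0.15 on day 1, so its replicate 3 was far below the others and below every day 2 sample. Its 7.78-fold fall against proliferating myoblasts (log2 change -2.96 ± 0.78, limma adjusted p = 0.020) was not called without that sample (log2 change -1.77, adjusted p = 0.117), without proliferating replicate 1 (-2.66, adjusted p = 0.064), or in a fit of these groups alone (adjusted p = 0.19). Id2 had levels of 2.66, 2.52 and 0.46 on day 1, and again replicate 3 was the lowest. Its log2 change of -1.67 ± 0.65 was not called (limma adjusted p = 0.11), but was without proliferating replicate 1 (-2.25, adjusted p = 0.040). Id3 also had its lowest day 1 level in replicate 3. In day 1 against proliferating myoblasts, 3 of 9 member probes tested were called, against 10.3% of 25735 probes on the array, of which 6.52% rose and 3.78% fell. Those that fell were Id1 and Id3.

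Id4 was not tested during differentiation, because some sample of each myotube group and of the proliferating myoblasts had it below background. It was above background on 1 of 3 samples on each of days 1, 2 and 4. Its levels on day 4 were -2.74, -4.09 and -1.74, of which the last was above background.

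Nothing among the members was called between day 4 and day 2. Of 9 probes tested 0 passed in limma and 1, the Tcf12 probe A_55_P2433438, had an unadjusted p under 0.05, where 0.714% of 23536 probes were called. The log2 changes of Id1, Id2 and Id3 were 0.41, 0.24 and 0.76, with 95% intervals from -1.24 to 2.06, from -1.13 to 1.60 and from -0.47 to 1.99. In adult quadriceps the Id genes lay near day 4 myotubes. Tissue and culture, and for part of the quadriceps samples strain, differ together in this comparison. They cannot be told apart, here and for all members below. Id3 had levels of 3.44, 2.20 and 2.66 in quadriceps and 2.83, 0.81 and 3.26 in day 4 myotubes, which overlap. Id2 had levels of 0.14, -1.12 and -1.19 in quadriceps, all below the 0.38, 0.56 and 1.00 of day 4 myotubes. Its log2 change of -1.37 (95% interval -2.75 to 0.00) was not called (limma adjusted p = 0.11), but was in a fit of these groups alone (adjusted p = 0.0405).

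In order of mean level, Id3 stood at 1.54 ± 0.57 on day 2, 1.92 ± 0.82 in stem cells, 2.30 ± 1.31 on day 4, 2.77 ± 0.63 in quadriceps, 3.78 ± 0.94 on day 1, 6.36 ± 0.04 in passage 0 myoblasts and 6.96 ± 0.45 in proliferating myoblasts (SD, n = 3 each). From day 2 to day 1 in this order, each group overlapped with the next. The widest step lay between day 1 and passage 0 myoblasts.

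Cell cycle genes fell too, with most calls on day 2 rather than day 1. The summed signal of 8 growth and cell cycle genes, relative to the array's 75th percentile, was 59.2 to 116 in proliferating myoblasts, 28.3 to 76.4 on day 1, 5.45 to 14 on day 2 and 6.48 to 17.5 on day 4. On day 1 against proliferating myoblasts 1 of these 8 genes fell and 0 rose, at a median log2 change of -0.86, where 10.3% of all probes were called. On day 2 against day 1, 6 of 7 tested fell and 0 rose, at a median of -4.29, where 3.53% were called. On day 4 against proliferating myoblasts 7 of the 8 genes fell and 0 rose, at a median log2 change of -4.10, against 0.03 over all probes tested. Their part in the fall of the Id genes was not tested.

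Tcf3, whose products E12 and E47 are the classic partners of Myod1, fell in differentiating myoblasts but was not called between passage 0 myoblasts and stem cells. In passage 0 myoblasts its probe A_51_P394471 had levels of 2.81, 2.77 and 2.35, against 3.06, 2.59 and 2.48 in stem cells. The groups overlapped, and the log2 change of -0.07 (95% interval -0.61 to 0.48) was not called. The probe A_55_P1975354 gave -0.12 (95% interval -0.69 to 0.45).

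On day 4 both Tcf3 probes were lower than in proliferating myoblasts. Probe A_51_P394471 had levels of 1.39, 0.93 and 1.17 on day 4 and 2.84, 3.46 and 2.89 in proliferating myoblasts, a 3.73-fold fall (log2 change -1.90 ± 0.25, limma adjusted p = 1.9e-05). Probe A_55_P1975354, shown above, had levels of -1.13, -1.83 and -1.23 on day 4 and 0.57, 0.58 and 0.07 in proliferating myoblasts, a 3.49-fold fall (log2 change -1.80 ± 0.26, limma adjusted p = 4.9e-05). The groups were apart for both probes, and both calls were made in 15 of 15 alternative settings. Without proliferating replicate 1 the log2 changes were -2.01 and -1.72.

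The decline of Tcf3 in culture was spread over days 1 and 2 and did not go on to day 4. Mean levels on days 2 and 4 were 1.19 and 1.16 for probe A_51_P394471 and -1.50 and -1.40 for probe A_55_P1975354. On day 1 against proliferating myoblasts the probes changed by -0.92 and -0.84 on the log2 scale, both with an adjusted p under the threshold in limma (0.023 and 0.048) but a fold under 2, so they were not called. Without proliferating replicate 1 the first gave -1.03 and was called (adjusted p = 0.020). On day 2 against day 1 probe A_55_P1975354 fell 2.09-fold (log2 change -1.07, limma adjusted p = 0.029), with levels of -1.14, -1.59 and -1.76 on day 2 and -0.32, -0.41 and -0.57 on day 1. The other probe changed by -0.95 (adjusted p = 0.041). Of 9 member probes tested 2 were called on day 2 against day 1, this one and that of Id3, against 3.53% of 25584 probes on the array, 0.981% higher and 2.55% lower. The Tcf3 call was made in only 6 of 15 alternative settings, and its fold lies close to the limit of 2.

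Quadriceps had less Tcf3 signal still. Probe A_55_P1975354 had levels of -2.40, -2.66 and -2.27 in quadriceps and -1.13, -1.83 and -1.23 in day 4 myotubes, without overlap, a 2.06-fold fall (log2 change -1.04 ± 0.26, limma adjusted p = 0.0041). Probe A_51_P394471 had levels of 0.54, 0.45 and 0.55 in quadriceps and 1.39, 0.93 and 1.17 on day 4, a log2 change of -0.65 (limma adjusted p = 0.0475) that misses the fold of 2. The call of the first probe was made in 10 of 15 alternative settings.

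**Figure D2:**
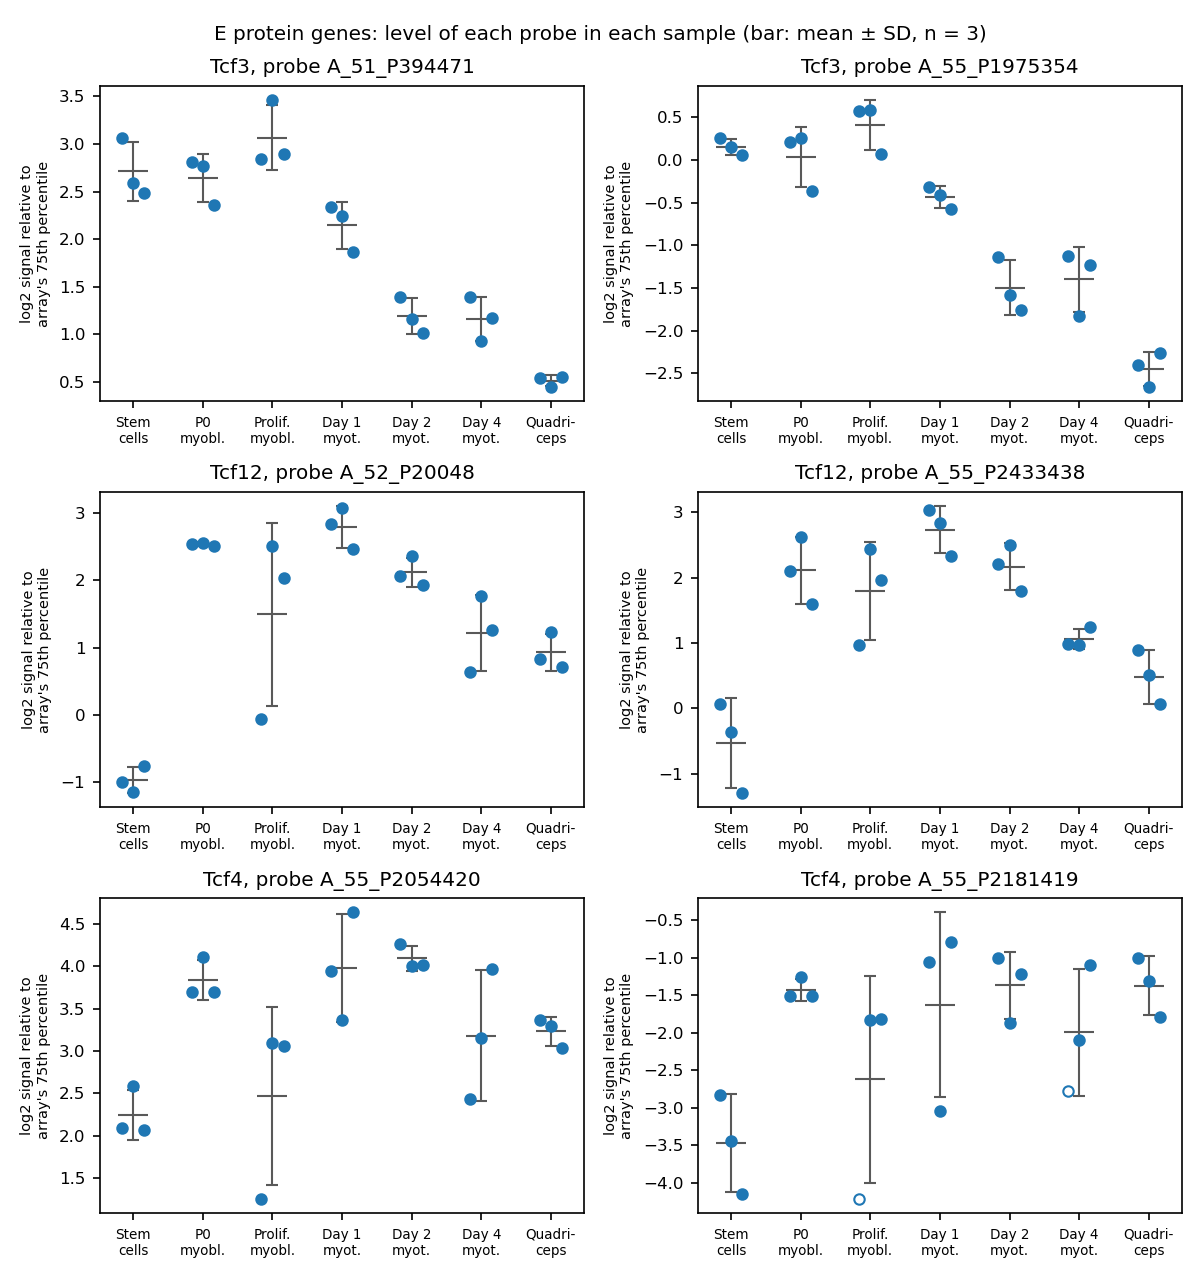
Levels of the 6 E protein probes (vertical axis, log2 signal minus the 75th percentile of the array) in each sample of the 7 groups, in order of stage (horizontal axis). Points are samples, open where the probe was not well above background, and bars are mean ± SD (n = 3). Both Tcf3 probes are lower in quadriceps than in proliferating myoblasts, with similar means on days 2 and 4. The Tcf12 probes have their highest mean on day 1, and proliferating replicate 1 is the lowest of its group for all 4 Tcf12 and Tcf4 probes.

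Tcf12, the E protein gene also called HEB, was low in stem cells and rose in passage 0 myoblasts. Its probe A_52_P20048 had levels of 2.54, 2.56 and 2.51 in passage 0 myoblasts, against -1.14 to -0.77 in stem cells. The 3 myoblast samples were nearly equal, and the rise was 11.4-fold (log2 change 3.51 ± 0.47, limma adjusted p = 7.4e-06). The second probe, A_55_P2433438, rose 6.25-fold (adjusted p = 3.8e-05 in limma).

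The course of Tcf12 in culture differed with 1 sample. Probe A_52_P20048 had levels of -0.06, 2.51 and 2.03 in proliferating myoblasts, 2.83, 3.07 and 2.46 on day 1, 2.06, 2.36 and 1.93 on day 2 and 0.64, 1.76 and 1.26 on day 4. Proliferating replicate 1 was the lowest value of the course. On day 4 against proliferating myoblasts the log2 changes of the 2 probes were -0.27 (95% interval -1.24 to 0.69) and -0.74 (-1.58 to 0.11), and neither was called. Without proliferating replicate 1 they were -1.05 and -1.15, and limma called both lower (adjusted p = 0.017 and 0.038). That fit kept day 4 replicate 1, whose 39.1% of spots well above background is the lowest share of all arrays. It had the lowest day 4 level of A_52_P20048 (0.64). Day 1 samples of A_52_P20048 ranged from 2.46 to 3.07, and the log2 change of 1.29 against proliferating myoblasts was not called (adjusted p = 0.081). It was 0.52 when proliferating replicate 1 was left out.

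Tcf4, the last of the E protein genes, is on chromosome 18 and was higher in passage 0 myoblasts than in stem cells on both probes. Probe A_55_P2054420 had levels of 3.70, 4.11 and 3.70 in passage 0 myoblasts and 2.08, 2.58 and 2.07 in stem cells, a 3.02-fold rise (log2 change 1.59 ± 0.46, limma adjusted p = 0.0085). The dimmer probe A_55_P2181419 rose 4.11-fold (limma adjusted p = 0.015), a call that was lost with quantile normalization (adjusted p = 0.058) and without stem cell replicate 3 (adjusted p = 0.0725).

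Tcf4 was also the 1 member called higher on day 1, on 1 of its probes. The other, A_55_P2181419, had a log2 change of 0.99 and was not called (adjusted p = 0.37). Probe A_55_P2054420 had levels of 3.94, 3.36 and 4.64 on day 1, against 1.25, 3.09 and 3.06 in proliferating myoblasts, a 2.86-fold rise (log2 change 1.52 ± 0.45, limma adjusted p = 0.036). The rise rests in part on proliferating replicate 1, without which the log2 change was 0.91 (adjusted p = 0.16), and the call was made in 7 of 15 alternative settings. On day 2 the levels were 4.26, 4.00 and 4.02 and on day 4 they were 2.43, 3.15 and 3.97. Day 4 against proliferating myoblasts gave 0.72 (95% interval -0.23 to 1.66), or 0.11 without proliferating replicate 1, and quadriceps against day 4 gave 0.05 (-0.90 to 1.00).

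Of 8 member probes tested on day 4 against proliferating myoblasts, 5 fell and 0 rose, where 10.8% of 22794 probes on the array fell and 15.3% rose, 26.1% in all. The 5 were those of Id1, Id2 and Id3 and both of Tcf3. Those of Id4, Twist1, Twist2 and the dimmer Tcf4 probe could not be tested.

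**Figure D3:**
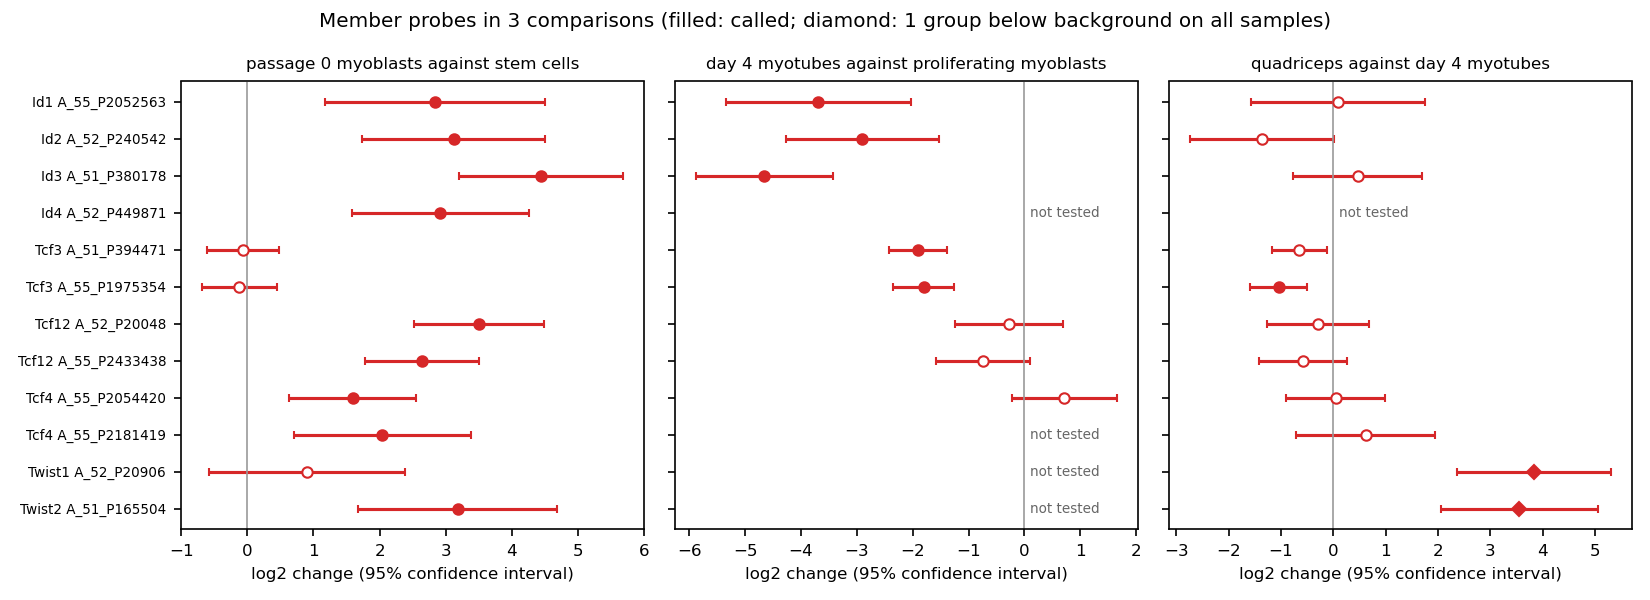
Log2 change with its 95% confidence interval (horizontal axes) of the 12 member probes in 3 comparisons. Filled points were called by limma, open ones were not, and diamonds mark probes above background on no sample of 1 group. Id1, Id2, Id3 and both Tcf3 probes lie left of 0 in day 4 myotubes against proliferating myoblasts, while only the Twist genes lie far right of 0 in quadriceps against day 4 myotubes.

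Twist1 and Twist2 had signal in stem cells, passage 0 myoblasts and quadriceps and none above background in myotubes. On days 1, 2 and 4 neither gene was above background on any sample. Quadriceps samples had Twist1 levels of -2.66, -0.86 and -2.53. The day 4 probe signals of Twist1 were -4.74, -6.33 and -6.48, all not well above background. Against the floor of those arrays Twist1 was at least 3.41-fold higher in quadriceps than on day 4 (limma adjusted p = 2.9e-04). Such a fold is a lower bound, given where a whole group was below background, and is set against the dimmest signal that counts as above background on each array or the probe's own signal where that is higher.

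Twist2, the close relative of Twist1, had levels of -1.70, -2.18 and -1.88 in quadriceps and signals of -4.86, -6.41 and -5.14, not well above background, on day 4. It was at least 3.66-fold higher in quadriceps (limma adjusted p = 6.9e-04). With normexp correction the call was gone (adjusted p = 0.063). Both Twist genes entered this comparison only because quadriceps samples had them above background. Their p-values come from the measured day 4 signals, which lie below background, and not from the lower bounds. Of 11 member probes tested in quadriceps against day 4 myotubes, 2 rose and 1 fell, the Tcf3 probe above, while 16% of 24631 probes on the array rose and 16.5% fell, 32.5% in all.

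Passage 0 myoblasts were mixed. Twist2 had levels of -3.11, 0.31 and 0.17 in passage 0 myoblasts and -3.16, -4.32 and -4.69 in stem cells, the last not above background. Replicate 1 of the myoblasts thus had hardly more than the highest stem cell sample, while the other samples were far above it. The rise was 9.06-fold (log2 change 3.18 ± 0.72, limma adjusted p = 0.0014), and without replicate 1 of the myoblasts the log2 change was 4.30. Among the passage 0 samples Twist1 was likewise lowest in replicate 1, with levels of -4.21, -2.29 and -2.57 in passage 0 myoblasts and -3.98, -4.22 and -3.56 in stem cells. Its groups overlapped, and the log2 change of 0.90 (95% interval -0.58 to 2.38) was not called (adjusted p = 0.34), but was with quantile normalization (1.28, adjusted p = 0.044).

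Proliferating myoblasts had less Twist2 than passage 0 ones. Its levels were -3.42, -4.60 and -3.29 in proliferating myoblasts, with the first 2 not above background, against -3.11, 0.31 and 0.17 at passage 0. The 7.42-fold fall was barely called (log2 change -2.89 ± 0.71, limma adjusted p = 0.049) and was lost in 9 of 14 alternative settings, among them without proliferating replicate 1 (-3.07, adjusted p = 0.0645). Within slides it ran from -4.91 to -0.17. This was the 1 call among 12 member probes in a comparison that called 0.833% of all probes lower and 0.682% higher. Twist1 was above background on 0 of 3 proliferating samples, and its log2 change of -2.24 was not called (adjusted p = 0.11), but was without proliferating replicate 1 (-3.00, adjusted p = 0.029) and with quantile normalization (-2.92, adjusted p = 0.0029).

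Fibroblast markers were high in quadriceps and passage 0 myoblasts too. The summed signal of 8 fibroblast marker genes, relative to the 75th percentile, was 466, 336 and 246 in quadriceps, against 15.7, 9.88 and 15.7 on day 4. In passage 0 myoblasts it was 29.7, 70.3 and 55.2, against 13.2, 4.81 and 3.16 in stem cells. Replicate 1, with the lowest Twist1 and Twist2 of the passage 0 samples, thus also had the lowest fibroblast sum. In proliferating myoblasts the sum was 12, 34.3 and 15.9. There replicate 2, with the highest sum, had the lowest Twist1 and Twist2 signals (-6.61 and -4.60), neither above background. In quadriceps replicate 1 had the highest sum, the lowest Twist1 level (-2.66) and the highest Twist2 level (-1.70).

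Single fibroblast genes differed. Pdgfra, a receptor of fibroblasts, had a mean level of 0.64 ± 0.24 in quadriceps and was above background on 0 of 3 samples on each of days 1, 2 and 4. Lum, a matrix proteoglycan, stood at 2.94 ± 0.19 in quadriceps and was likewise not above background in any myotube or proliferating sample. In contrast, the collagen gene Col3a1 was above background in every sample, Col1a1 in every myotube sample, and 3 to 5 of the 8 markers in each myotube sample. On day 4 against proliferating myoblasts 1 of 5 fibroblast markers tested rose and 1 fell, where 26.1% of all probes were called. Without proliferating replicate 1, 2 of 6 tested rose and 1 fell. Of 7 fibroblast markers tested, 5 rose and 0 fell in quadriceps against day 4, where 16% of all probes rose and 16.5% fell. Of 7 tested in proliferating against passage 0 myoblasts, 0 rose and 4 fell, where 0.682% of all probes rose and 0.833% fell. Markers of other cells were also above background more often in quadriceps. All 6 endothelial, 4 adipocyte and 4 Schwann cell markers were above background there, while on day 4 the numbers were 2 to 4, 0 to 1 and 0 to 2. Of 6 leukocyte markers 4 to 5 were above background in quadriceps and 2 to 3 on day 4, and of 5 smooth muscle and pericyte markers 5 in quadriceps and 2 to 3 on day 4. The summed signal of the smooth muscle and pericyte markers went the other way, at 22.8 to 49.8 in quadriceps and 180 to 278 on day 4. Of these 5 markers 3 rose and 1 fell in quadriceps against day 4. In proliferating against passage 0 myoblasts, where Twist2 fell, 2 of 4 smooth muscle and pericyte markers tested fell too. So did 1 of 6 leukocyte and 1 of 2 adipocyte markers, but 0 of 3 endothelial and 0 of 2 Schwann cell markers. Without proliferating replicate 1, 1 of 3 endothelial markers fell, and the counts of the other cell types in this comparison stayed the same. All 6 leukocyte markers were above background in each passage 0 sample, and 2 to 4 in proliferating ones. The part of these cells in the Twist results was not tested.

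**Figure D4:**
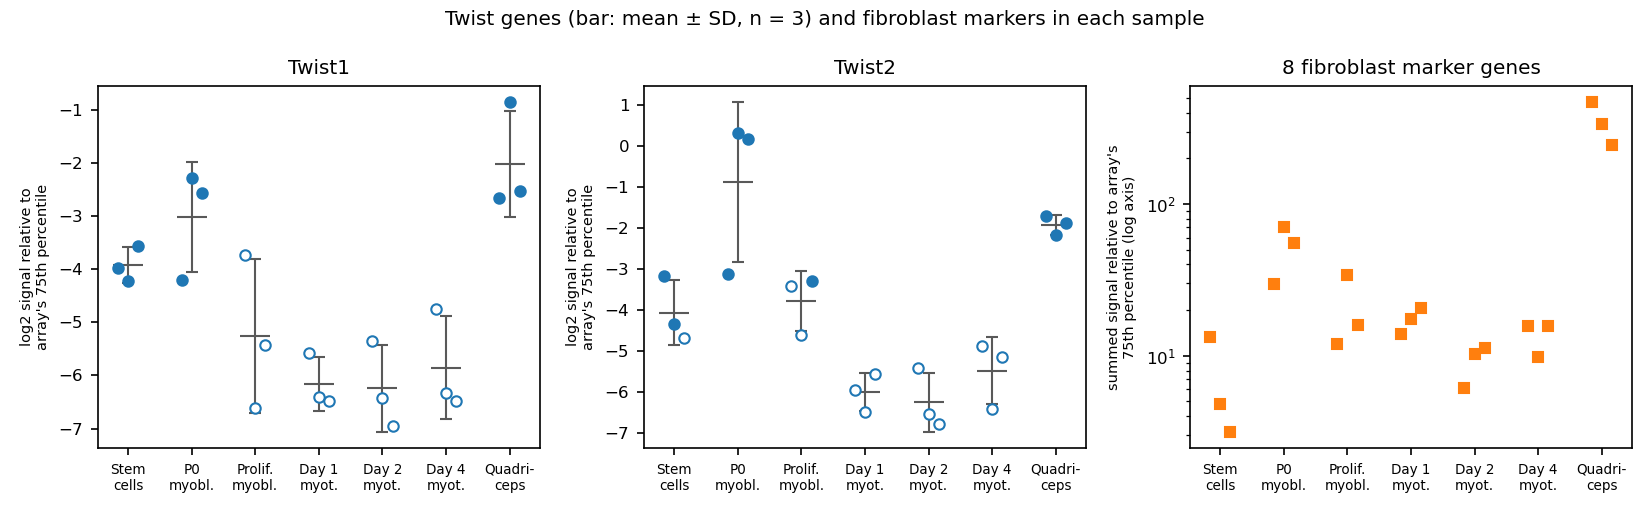
Levels of Twist1 and Twist2 (left and middle panels, log2 signal minus the 75th percentile of the array, bars mean ± SD, n = 3) and the summed signal of 8 fibroblast marker genes (right panel, log axis) in each sample of the 7 groups. Open points were not well above background. All 3 quantities are high in quadriceps, and passage 0 replicate 1, the leftmost point of its group, is the lowest of its group in each panel. Within quadriceps the leftmost point is the lowest for Twist1 but the highest in the other panels.

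The muscle bHLH factors pair with E proteins. In passage 0 myoblasts against stem cells, Myod1 was at least 1539-fold and Myog at least 2757-fold higher, with neither above background in stem cells, and all 3 of the tested factors rose. Of 10 genes known as E box targets in muscle, 10 rose there, with a median log2 change of 6.92, or 6.48 with lower bounds, against -0.27 over all probes tested. These lists were drawn up with results of the series known, and their counts are a description.

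On day 4 against proliferating myoblasts, where the Id genes and Tcf3 fell, Myog and Myf6 rose 3.39-fold and 17.3-fold (limma adjusted p = 0.016 and 0.0090). Myod1 fell 2.68-fold (adjusted p = 0.0058 in limma). Among 10 tested E box targets 7 rose, 0 fell and the median log2 change was 2.11, where 15.3% of all probes rose. The creatine kinase gene Ckm rose 95.3-fold, the MyoD cofactor gene Mef2c 28.8-fold and the slow troponin gene Tnni1 11.2-fold (adjusted p = 2.5e-05, 3.7e-06 and 0.041 in limma). The counts were also 7 and 0 without proliferating replicate 1, while the folds were 159 for Ckm, 28.6 for Myf6 and 16.9 for Tnni1.

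Other repressors of bHLH factors went both ways. On day 4 against proliferating myoblasts 3 of 11 tested rose, 1 fell and the median log2 change was 0.30, where 15.3% of all probes rose and 10.8% fell. Bhlhe40 rose 11.3-fold, Heyl, a Notch target, 11.2-fold and Zeb1 6.00-fold (limma adjusted p = 2.9e-04, 2.8e-04 and 7.6e-04). Snai2, an E box repressor of mesenchymal cells and myoblasts, fell 8.05-fold (adjusted p = 1.4e-05 in limma). Leaving out proliferating replicate 1 again gave counts of 3 and 1, and Zeb1 rose 3.73-fold. Heyl and Zeb1 were already higher on day 1, by 4.36 and 2.70 on the log2 scale. Among other tissue-restricted bHLH genes, Atoh8 fell 47.4-fold (adjusted p = 9.2e-07 in limma) and Scx, a tendon factor, rose 3.13-fold (adjusted p = 0.0060 in limma), while Ascl2 was at least 2.05-fold lower.

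The BMP pathway was tested in the same comparison, in which 26.1% of all probes were called. Of 8 receptors 0 were called, with a median log2 change of 0.46 and 2 at an unadjusted p under 0.05, and of 3 signal transducers 0 were called and 1 had an unadjusted p under 0.05. Among 4 ligands tested 1 rose, the growth factor gene Gdf5 (6.32-fold, limma adjusted p = 0.016), whose groups overlapped. Among 11 antagonists 1 rose and 1 fell. Smad6, the inhibitory Smad that BMP signals themselves switch on, fell 4.51-fold (log2 change -2.17, limma adjusted p = 4.1e-04), and it had already fallen 5.67-fold on day 1. Fst, which binds activins and BMPs, rose 6.44-fold (adjusted p = 8.5e-04 in limma). Without proliferating replicate 1 the receptors again gave 0 calls, 1 of 4 transducers fell, 2 ligands rose with Gdf5 at 14.6-fold, and 1 antagonist rose and 2 fell.

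**Figure D5:**
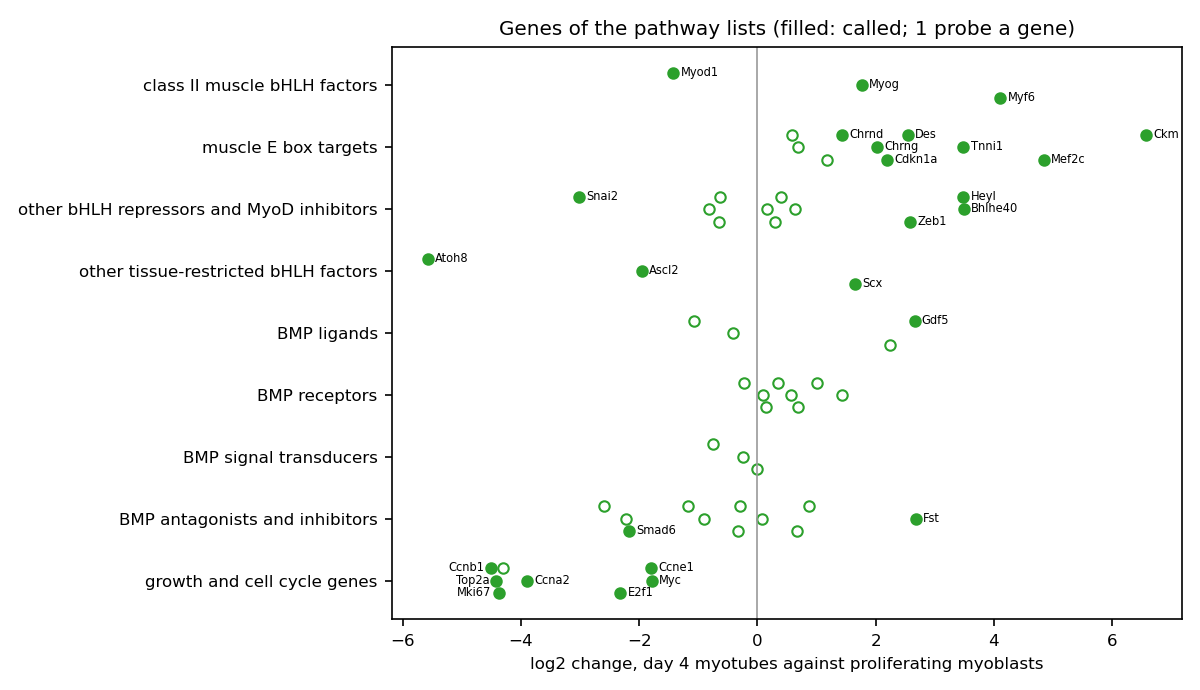
Log2 change on day 4 against proliferating myoblasts (horizontal axis) of the genes of 9 lists, 1 probe a gene. Filled and named points were called by limma, open points were not. Muscle E box targets lie mostly right of 0 and growth genes left of 0, and no BMP receptor was called.

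In passage 0 myoblasts against stem cells, where all 4 Id genes rose, 5 of 8 BMP receptors rose and 1 fell, where 17.8% of all probes rose and 21% fell. Acvr1, a type I receptor, rose 10.4-fold and Bmpr2, the type II receptor, 6.58-fold (limma adjusted p = 4.9e-07 and 6.2e-04), while Acvr2b fell 8.42-fold. Of 4 signal transducers 3 rose, with Smad9 at least 9.76-fold, Smad5 3.75-fold and Smad1 2.34-fold higher. Of 5 ligands 2 rose and 2 fell, among them Bmp4, which fell 51.9-fold, and Bmp7, which fell 21.5-fold. Of 11 antagonists 6 rose and 0 fell, among them Grem1 at 186-fold and Fst at 13.6-fold.

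In quadriceps against day 4 myotubes, where Id1 and Id3 overlapped between groups, Bmp4 rose 20.4-fold and the endothelial receptor genes Acvrl1 and Eng rose 15.4-fold and 5.75-fold. Of 7 ligands tested 4 rose and 2 fell, with Gdf5 8.39-fold and Gdf6 at least 5.90-fold lower, while 16% of all probes rose and 16.5% fell. Of 10 antagonists 2 rose and 3 fell, with Fst 27.8-fold and Grem1 at least 29.6-fold lower. Myog and Myod1 fell 117-fold and 8.19-fold. Smad6 rose 2.38-fold (limma adjusted p = 0.019). The bHLH genes Tcf15, Tal1 and Lyl1 were also higher, with Tcf15 at least 84.9-fold, Tal1 at least 6.54-fold and Lyl1 19.2-fold, while Scx fell by 4.39 on the log2 scale, beside the markers of other cell types given above.

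The genes whose levels ran most like each member over the 21 samples were taken from 15259 probes with a RefSeq name and a signal well above background on at least 15 samples. Id4, Twist1 and Twist2 were themselves below background on several samples of these. The correlations are a description, since all genes share the same arrays and the samples fall into groups. Id3 was followed most closely by Plin2 (Pearson r = 0.952), Rps6ka4 (0.914) and Gnb4 (0.913), and Id2 by Tpm4 (0.967). The list for Id1 held Tagln2 (0.922), Elk3 (0.901) and Id3 (0.898), so Id3 was the 1 member near another. Tcf3 ran with Trerf1, Coro1c and Rnf26 (0.967, 0.964 and 0.963), Tcf12 with Phlpp1 and Senp5 (0.948 each) and Tcf4 with Dnajc3 and Ranbp9 (0.936 each). Twist1 ran with Trf (0.928) and Loxl2 (0.897), and Twist2 with Procr (0.912) and Emilin2 (0.900). Id4 had the weakest neighbours, Kcnn4 at 0.888 and Gas2 at 0.866.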

How the data were processed

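RNA of 23 samples was measured on 1-colour Agilent mouse 8x60K arrays, 1 sample per array. Per the file headers, the processed signal intensity of each spot was made by Agilent Feature Extraction 10.7.3.1, with flags (0 or 1) for spots above background. The authors also deposited a table of log2 values with a median of 6.72 in every column, whose normalization is not given in the sources used here. The log2 intensities were centred on the 75th percentile of their array. The 2 arrays of E14tg2 were averaged. Their member probes differed by 0.085 to 1.12. A limma 3.58.1 model (R 4.3.3) with 7 group means was fitted per probe to 21 samples (14 residual degrees of freedom). P-values had Benjamini-Hochberg adjustment over all probes tested in each of 7 comparisons. The script was tested on simulated data. The arrays came from 3 slides scanned on 1 day. Each slide held 1 sample of each group, apart from the repeat array of E14tg2. All 12 member probes are named, and of each list up to 3 called genes per direction with the largest change, 1 probe a gene. A gene that this rule names is not reported here. Of the 12 probes all matched a RefSeq symbol. Members, lists and tests were chosen with earlier results of these data known. The alternatives tried were quantile normalization, normexp correction (offset 50), values from the authors' table, other filters, slide and replicate blocks, a fit of the compared groups alone, the NOD sample added to quadriceps, and leaving out each sample. A block by culture number and the gene lists without proliferating replicate 1 were added after seeing the data.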

Additional observations from a re-analysis of the deposited data

How the results depend on the processing

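In 1028 refits of the 70 tested probe results, 939 kept direction and side of the threshold, 19 gained a call, 45 lost it and 25 turned sign, none of the last called either way. The number of member probes called in passage 0 myoblasts against stem cells (9), day 4 against day 2 (0) and day 4 against proliferating myoblasts (5) stayed within 1.5 times under every setting other than leaving samples out. In proliferating against passage 0 myoblasts the count of 1 became 2 with quantile normalization or the authors' values and 0 without a filter, with a filter on both groups, with either replicate block or with the compared groups alone. In day 1 against proliferating myoblasts 3 became 1 with the compared groups alone. In day 2 against day 1, 2 became 1 with normexp or the authors' values and 0 without a filter, with the compared groups alone or with the replicate block by culture number. In quadriceps against day 4, 3 became 1 with normexp or a filter on both groups, since that filter leaves the Twist genes untested. The other causes were not tested. Leaving out each sample gave 8 to 9 calls in passage 0 myoblasts against stem cells, 0 to 2 in proliferating against passage 0 myoblasts, 1 to 5 on day 1 against proliferating myoblasts, 0 to 3 on day 2 against day 1, 0 to 0 on day 4 against day 2, 5 to 7 on day 4 against proliferating myoblasts and 2 to 3 in quadriceps against day 4.

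Same-numbered samples of proliferating myoblasts and myotubes deviated together with r from -0.29 to 0.75 over 6 pairs of groups, all above 0.1 only between days 1 and 4, which was not taken as pairing. Their titles hold a further number, here called culture number, in step with the replicate number, but at passage 0 one of these stands at another replicate. The labels do not say what it marks. With the replicate block Twist2 in proliferating against passage 0 myoblasts had an adjusted p of 0.052 at an unchanged log2 change of -2.89, and no other call of a member changed. A replicate block by culture number, chosen after seeing the data and fitted to the cultured samples, brought Twist2 to -1.29 (adjusted p = 0.595), Id3 and Tcf3 on day 2 against day 1 to adjusted p of 0.117 and 0.0992, and Tcf4 on day 1 to 0.0818. It left all 5 calls of day 4 against proliferating myoblasts, and turned Id1 in proliferating against passage 0 myoblasts to -0.0336. Over all probes the number of calls moved by over 1.5 times with the compared groups alone (0 against 422 in proliferating against passage 0 myoblasts, 437 against 2651 on day 1 against proliferating myoblasts, 593 against 904 on day 2 against day 1, 0 against 168 on day 4 against day 2 and 2664 against 5957 on day 4 against proliferating myoblasts). With the filter on both groups the same pairs of numbers were 6896 against 12160 in passage 0 myoblasts against stem cells, 162 against 422, 599 against 904 on day 2, 59 against 168 on day 4 against day 2 and 4907 against 7994 in quadriceps. Without a filter they were 435 against 904 and 33 against 168, normexp gave 745 against 422, and the culture block 99 against 422, 390 against 904 and 39 against 168. Leaving out 1 sample gave 94 (passage 0 replicate 2) to 3041 (proliferating replicate 3) against 422, and lowest counts of 1525 (day 1 replicate 3) against 2651, 402 (day 1 replicate 1) against 904, and 28 (day 4 replicate 1) against 168.

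The signs that turned belonged to changes that were not called, all log2 changes. With quantile normalization Tcf4 probe A_55_P2054420 turned to -0.0382 on day 2 against day 1 and Tcf3 probe A_51_P394471 to 0.0385 on day 4 against day 2. With the authors' values the same results were -0.0767 and 0.0267, and Tcf3 probe A_55_P1975354 turned to -0.01 on day 4 against day 2. With normexp Tcf4 probe A_55_P2054420 turned to -0.0052 in quadriceps against day 4. The other signs turned when 1 sample was left out. The ranges in passage 0 myoblasts against stem cells were -0.1811 to 0.1084 and -0.2335 to 0.0807 for the Tcf3 probes A_51_P394471 and A_55_P1975354, and Tcf12 probe A_55_P2433438 ran from -0.6422 to 0.0915 in proliferating against passage 0 myoblasts. On day 2 against day 1 the Tcf4 probes A_55_P2054420 and A_55_P2181419 ran from -0.197 to 0.4407 and from -0.444 to 0.6833. On day 4 against day 2 the Tcf3 probes in the same order ran from -0.14 to 0.0907 and from -0.0362 to 0.314, and Id2 from -0.3236 to 0.7781. Tcf12 probe A_52_P20048 ran from -1.0486 to 0.2346 on day 4 against proliferating myoblasts. In quadriceps against day 4 Tcf4 probe A_55_P2054420 ran from -0.3281 to 0.4414, Id3 from -0.2796 to 0.9461 and Id1 from -0.6423 to 0.5989. Signal near background limits Id4, Twist1 and Twist2 most.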

Other observations

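The single skeletal muscle sample of a NOD/ShiLtj mouse had levels of 2.30 for Id1, -1.43 for Id2, 2.03 for Id3 and -3.32 for Id4, with all 12 member probes above background. Its Id2 level was below, and its Id3 level just below, every quadriceps sample. Tcf3 stood at 0.50 and -2.28 on its probes A_51_P394471 and A_55_P1975354, within the range of the 3 quadriceps samples. Twist1 and Twist2 stood at -1.32 and -1.57, beside a fibroblast marker sum of 490. Added to the quadriceps, this sample brought Id2 to a log2 change of -1.55 against day 4 myotubes, which limma then called (adjusted p = 0.047). It has no replicate.

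Hey1, a Notch target that represses bHLH factors, was the 1 gene of the repressor list called between passage 0 and proliferating myoblasts. It fell 7.33-fold there (limma adjusted p = 7.7e-04), rose 5.01-fold on day 1 against proliferating myoblasts (adjusted p = 6.0e-04 in limma) and fell 3.24-fold on day 2 against day 1 (adjusted p = 0.015 in limma). Bhlhe40, a repressor that binds E boxes, rose 6.78-fold on day 2 against day 1 (limma adjusted p = 0.015). The BMP antagonist Bmper fell 4.05-fold on day 1 and rose 3.81-fold on day 2 (limma adjusted p = 0.014 and 0.037), the first not called without proliferating replicate 1 (adjusted p = 0.064), while Smad6 stayed low, with mean levels of -2.23 ± 0.62 on day 1, -2.33 ± 0.57 on day 2 and -1.90 ± 0.34 on day 4 (SD, n = 3 each).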
